A study of Homo sapiens with 6 samples.

Results

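The genes described here encode the proteins of the spliceosomal small nuclear ribonucleoproteins (snRNPs) and the core splicing factors that work with them. A list of 43 human gene symbols was matched, by transcript identifier, to the transcription units (TUs) whose counts were deposited, out of 37254 matched TUs with a span over 1000 bp. A counted transcript was found for 42 of the 43, and 40 passed the thresholds for a half-life estimate, among 9925 TUs (8733 of them mRNAs) that did. The study measured new and steady-state RNA in K562 cells, a human chronic myelogenous leukemia line with erythroid features, and all libraries came from a single flask of untreated cells. There were 2 PRO-seq libraries, which sequence the nascent RNA held by engaged polymerases, and 4 total RNA-seq libraries made after rRNA depletion, so no genotype, treatment or time point was compared and replicates measure technical spread only. These libraries were generated for the study, whereas its main analyses used previously published data. The paper found half-life estimates from the published data less variable, and closer to those of other studies, than estimates from its new libraries. Each value is an average over all cells, so that fewer cells with a transcript and less of it in each cell cannot be told apart.

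The spliceosome removes introns from precursor mRNAs. Most introns are handled by the U1, U2, U4, U5 and U6 snRNPs, each a small nuclear RNA wrapped in proteins, whereas a rare class of introns uses the U11, U12, U4atac, U5 and U6atac snRNPs. U1, U2, U4 and U5 carry a ring of Sm proteins, U6 carries a ring of LSM proteins, and each snRNP adds proteins of its own. Proteins of 1 particle are needed in fixed ratios, which makes it informative to set the levels of their mRNAs side by side.

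Relative half-life is the steady-state level of an RNA over its nascent level, both in TPM, and carries no time unit. TPM is a count per unit of length scaled to the same total in every library. The length was that of the exons in RNA-seq and, in PRO-seq, the TU span less 1000 bp. An estimate required more than 10 TPM of nascent RNA and more than 1 TPM of steady-state RNA, and is given on the log2 scale with the median mRNA at 0. The libraries held between 5732780 and 9002746 counts on TUs. Erythroid genes were abundant in the RNA-seq libraries (HBG2 at 6287 TPM, HBE1 at 3104, HBG1 at 1828, KLF1 at 186, GATA1 at 155, TAL1 at 79.7 and HBZ at 13.2). Of the markers of other cell types, COL1A1, KRT5, ALB and CD3E were below 0.5 TPM and the myeloid gene LYZ was at 334 TPM.

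The core splicing factor genes had high nascent levels and most of their mRNAs had long relative half-lives. PRO-seq counts engaged polymerases, so that a nascent level reflects their speed along the gene as well as the rate of transcription. The median member had 112 TPM in PRO-seq, against 47.5 TPM for the median mRNA, and 155 TPM in RNA-seq, against 31.2 TPM. PRO-seq TPM was above that of the median mRNA in 36 of the 40 genes and RNA-seq TPM in 34. Relative half-life was above the median mRNA in 32 of 40 genes and below it in 8, by the quasi-likelihood test of edgeR after Benjamini-Hochberg adjustment over all TUs tested. The same test placed 45.4% of mRNAs above and 44.9% below, and 40.4% of all TUs above and 50.0% below. The median over the 40 genes was 1.53 on the log2 scale, a 2.89-fold longer half-life than that of the median mRNA, where the quartiles of all mRNAs were −1.06 and 1.08.

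Differences of more than 2-fold were tested as well. They were called above the median mRNA for 26 of the genes, against 24.3% of mRNAs and 21.5% of TUs. They were called below it for 6, against 23.2% of mRNAs and 29.2% of TUs. Replicate spread was taken as the square root of the summed RNA-seq and PRO-seq variances of log2 TPM. It had a median of 0.095 over the genes (0.126 over mRNAs), and was largest for SNRNP27 (0.36).

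A motif found in about 1 in 2 of their promoters was less frequent among promoters in general. RefSeq promoters (GRCh38.p14, 250 bases before to 50 after the start) were matched for 37 of the 43 genes by symbol, and LSM6, PRPF3, LSM1, SNRPD1, SF3B3 and SNRNP35 had no entry. The 7 letters CCGGAAG, the core of sites bound by ETS transcription factors, were present on either strand in 19 of the 37 promoters (51.4%), in 22.7% of 7226 promoters of mRNAs with an estimate and in 10.7% of 27305 promoters. The 37 include SNRPD3, U2AF1 and SF3B5, which have no estimate and lack these letters. Among the genes with an estimate, 19 promoters held them and 15 did not. The other motifs searched on both strands were the GC box GGGCGG (64.9% of the 37, 72.9% of mRNA promoters and 44.6% of all), CCAAT (40.5%, 38.1% and 35.7%) and TATAAA (2.70%, 4.84% and 12.0%). Of these, only the GC box can share edge letters with CCGGAAG.

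The ETS letters are shown in capitals below in the last 90 bases before and the first 10 bases from the start of 3 Sm genes and the 3 SF3A genes, 2 particles whose subunits are compared later. The 3 Sm genes are those with the motif in this stretch, whereas that of SNRPE lies farther upstream and the promoters of SNRPF and SNRPD3 hold none. All 6 are given 5′ to 3′ on the gene's strand, and CTTCCGG is the same motif read on the other strand.
SNRPB, chr20:2470780-2470879, minus strand: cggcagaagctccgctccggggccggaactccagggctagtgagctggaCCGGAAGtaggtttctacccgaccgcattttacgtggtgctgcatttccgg
SNRPD2, chr19:45692307-45692406, minus strand: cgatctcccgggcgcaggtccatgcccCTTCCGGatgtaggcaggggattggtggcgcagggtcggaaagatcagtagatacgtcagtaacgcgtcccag
SNRPG, chr2:70293449-70293548, minus strand: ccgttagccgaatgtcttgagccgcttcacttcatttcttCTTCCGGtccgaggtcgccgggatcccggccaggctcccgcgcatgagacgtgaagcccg
SF3A1, chr22:30356885-30356984, minus strand: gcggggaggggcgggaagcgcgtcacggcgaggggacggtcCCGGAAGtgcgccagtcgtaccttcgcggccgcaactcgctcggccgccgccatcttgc
SF3A2, chr19:2236734-2236833, plus strand: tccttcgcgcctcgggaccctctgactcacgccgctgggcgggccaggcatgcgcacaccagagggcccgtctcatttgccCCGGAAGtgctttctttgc
SF3A3, chr1:37990013-37990112, minus strand: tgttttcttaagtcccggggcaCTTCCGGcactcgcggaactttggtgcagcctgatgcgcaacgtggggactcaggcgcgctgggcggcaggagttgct
Among genes with an estimate and a promoter entry, the 19 with the motif had a median of 110 TPM in PRO-seq and a median log2 half-life of 1.75, and the 15 without it had 129 TPM and 1.70. Over mRNAs, the corresponding medians were 56.8 TPM for the 1639 TUs with the motif and 45.8 TPM for the 5592 without it, where 5 TUs are further transcripts of a gene already counted. A match describes the letters in the window and is not a binding site shown by these data.

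The Sm core is the ring of SNRPB, SNRPD1, SNRPD2, SNRPD3, SNRPE, SNRPF and SNRPG that is assembled on the U1, U2, U4 and U5 RNAs. All 6 Sm mRNAs with an estimate lay above the median mRNA, with a median log2 half-life of 2.53. SNRPD2 (GRCh37 chr19:46190718-46195211, minus strand, 3 exons) was the highest of the 40 genes in both RNA level and half-life. It had 2228, 2333, 2224 and 2250 TPM in the RNA-seq libraries, against 173 and 189 TPM in the PRO-seq libraries, and its log2 half-life was 4.28 ± 0.06 (SE, n = 4 and 2 libraries, edgeR adjusted p = 2.4e-32). At the other end of the ring, SNRPD1 (4 exons) had 133, 137, 138 and 146 TPM in RNA-seq and 133 and 137 TPM in PRO-seq, with a log2 half-life of 0.67 ± 0.05 (edgeR adjusted p = 1.4e-13). The PRO-seq levels of this pair differed little, whereas every RNA-seq library held over 10 times more SNRPD2 than SNRPD1 per unit of length.

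SNRPG had between 870 and 888 TPM in RNA-seq, 236 and 225 TPM in PRO-seq, and a log2 half-life of 2.57 ± 0.05. SNRPE had between 276 and 301 TPM in RNA-seq, 158 and 164 TPM in PRO-seq, and a log2 half-life of 1.48 ± 0.06. SNRPB, whose protein product comes in the alternative forms SmB and SmB′, had between 812 and 900 TPM in RNA-seq, 134 and 147 TPM in PRO-seq, and a log2 half-life of 3.24 ± 0.06. Another counted TU on the same strand covers 31.6% of the SNRPB window used for PRO-seq, and leaving the shared bases out of its lengths gave 2.91.

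SNRPF had between 172 and 190 TPM in RNA-seq and 51.1 and 47.4 TPM in PRO-seq, the lowest nascent level of the 6 Sm genes with an estimate, for a log2 half-life of 2.49 ± 0.07. Its counted transcript spans 44860 bp, whereas the canonical transcript of the gene spans 7189 bp, so the PRO-seq window of SNRPF lies for the most part outside the canonical gene. The RNA-seq value is limited too, since 28.7% of the counted exon bases belong to the canonical transcript. The counted SNRPF transcript holds 51.8% of the canonical exon bases. SNRPD3 had no estimate. Its RNA-seq levels were 63.0, 82.1, 67.5 and 75.3 TPM, and it had 0 counts in both PRO-seq libraries. The whole SNRPD3 window lies under another counted TU on the same strand, and of the TUs in that position, 97.6% of 2078 had 0 PRO-seq counts, against 23.5% of the 20037 with no other TU in their window. The RNA-seq level of SNRPD3 is limited as well. That other TU shares 70.9% of its counted exon bases, and the counted transcript holds 12.9% of the canonical ones.

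The U1 snRNP pairs with the 5′ splice site and has 3 proteins of its own. SNRPC, which steadies this pairing, had 747, 761, 781 and 750 TPM in RNA-seq and 92.9 and 86.7 TPM in PRO-seq, and its log2 half-life of 3.72 ± 0.06 (edgeR adjusted p = 1.3e-31) was second to SNRPD2 among the 40 genes. SNRNP70, which binds the first stem-loop of U1 RNA, stood at 1.70 ± 0.05. SNRPA, which binds another stem-loop, stood at 0.25 ± 0.07 (edgeR adjusted p = 0.0011), close to the median mRNA. The nascent levels of SNRNP70 (159 TPM) and SNRPA (160 TPM) were almost equal, and their RNA levels were 331 and 123 TPM. The counted SNRPA transcript holds 49.3% of the exon bases of the canonical one, and reads from the remainder were not part of its count.

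The U2-specific proteins SNRPA1 and SNRPB2 bind the U2 RNA together, and their genes lay on opposite sides of the median mRNA. SNRPA1 had 60.5, 65.3, 61.2 and 62.2 TPM in RNA-seq and 230 and 223 TPM in PRO-seq (log2 half-life −1.22 ± 0.06, edgeR adjusted p = 4.9e-18). SNRPB2 had 82.4, 81.0, 84.8 and 85.2 TPM in RNA-seq and 30.2 and 29.3 TPM in PRO-seq (2.12 ± 0.09, edgeR adjusted p = 2.1e-19). In both PRO-seq libraries SNRPA1 stood several times above its partner, and in all 4 RNA-seq libraries it stood below. The counted SNRPA1 transcript is a retained-intron form of which 49.7% of the exon bases belong to the canonical transcript. With the canonical exon length in place of the counted one, its log2 half-life was −0.22 and its RNA-seq level lay above that of SNRPB2 in all 4 libraries.

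SF3A and SF3B are the U2 subcomplexes that recognize the branch point. Of the 8 genes below the median mRNA they held 4, and their subunits differed less in nascent than in steady-state RNA. PRO-seq levels of the 8 SF3A and SF3B genes with an estimate lay between 86.3 and 243 TPM, each above the mRNA median of 47.5 TPM, whereas their RNA-seq levels lay between 19.6 and 498 TPM.

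Within SF3A, the 3 subunits of a stable trimer split. SF3A3 had 474, 474, 470 and 501 TPM in RNA-seq and 222 TPM in both PRO-seq libraries, for a log2 half-life of 1.75 ± 0.04 (edgeR adjusted p = 3.5e-27). SF3A1 had 18.2, 20.7, 20.2 and 19.1 TPM in RNA-seq and 81.9 and 90.6 TPM in PRO-seq, for −1.50 ± 0.07 (edgeR adjusted p = 1.4e-18). SF3A2 had 29.4, 24.2, 26.5 and 27.8 TPM in RNA-seq and 105 and 94.2 TPM in PRO-seq, for −1.25 ± 0.10 (edgeR adjusted p = 3.9e-13). SF3A3 mRNA was thus over 15 times as abundant per unit of length as that of either partner in each RNA-seq library, with a PRO-seq level about 2 to 3 times as high. All 3 counted transcripts match the canonical ones closely. SF3A3 has 2 pseudogenes among the counted TUs, with 220 and 364 RNA-seq counts summed over the 4 libraries, so that some of its reads could be divided among copies. SF3A2 has a counted pseudogene too, SF3A2P1, with 0 RNA-seq counts. Reads aligned to more than 1 place were left out, so that the RNA-seq values of SF3A2 and SF3A3 could be too low, which was not tested.

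Within SF3B, SF3B6 (p14), which touches the branch point adenosine, had between 487 and 512 TPM in RNA-seq, 113 and 107 TPM in PRO-seq, and a log2 half-life of 2.82 ± 0.07. SF3B4, an RNA-binding subunit, had an almost identical PRO-seq level of 115 and 108 TPM. Its RNA-seq levels were 22.0, 24.9, 19.1 and 24.2 TPM, the log2 half-life was −1.65 ± 0.14 (edgeR adjusted p = 2.6e-12), and no RNA-seq library of SF3B4 came near the range of SF3B6. SF3B4 also has a counted pseudogene, SF3B4P1, with 0 RNA-seq counts. Whether reads shared by the 2 were left out of the SF3B4 count was not tested. SF3B1, the large subunit that is recurrently mutated in myelodysplastic syndromes, stood at 1.03 ± 0.04 (RNA-seq between 141 and 152 TPM, 112 TPM in both PRO-seq libraries), and SF3B2 at 1.58 ± 0.06. Of the exon bases of the counted SF3B1 transcript 69.6% belong to the canonical one, and the canonical exon length gave 1.55.

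SF3B3 had the highest PRO-seq level of the 40 genes (247 and 240 TPM) and between 129 and 139 TPM in RNA-seq. Its log2 half-life of −0.21 ± 0.04 (edgeR adjusted p = 5.2e-06) was close to the median mRNA and turned to 0.01 when values were centred on all TUs and to 0.42 without TPM thresholds. SF3B5, a single-exon gene of 690 bp, was not among the listed transcripts and is not analysed here.

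**Figure D1:**
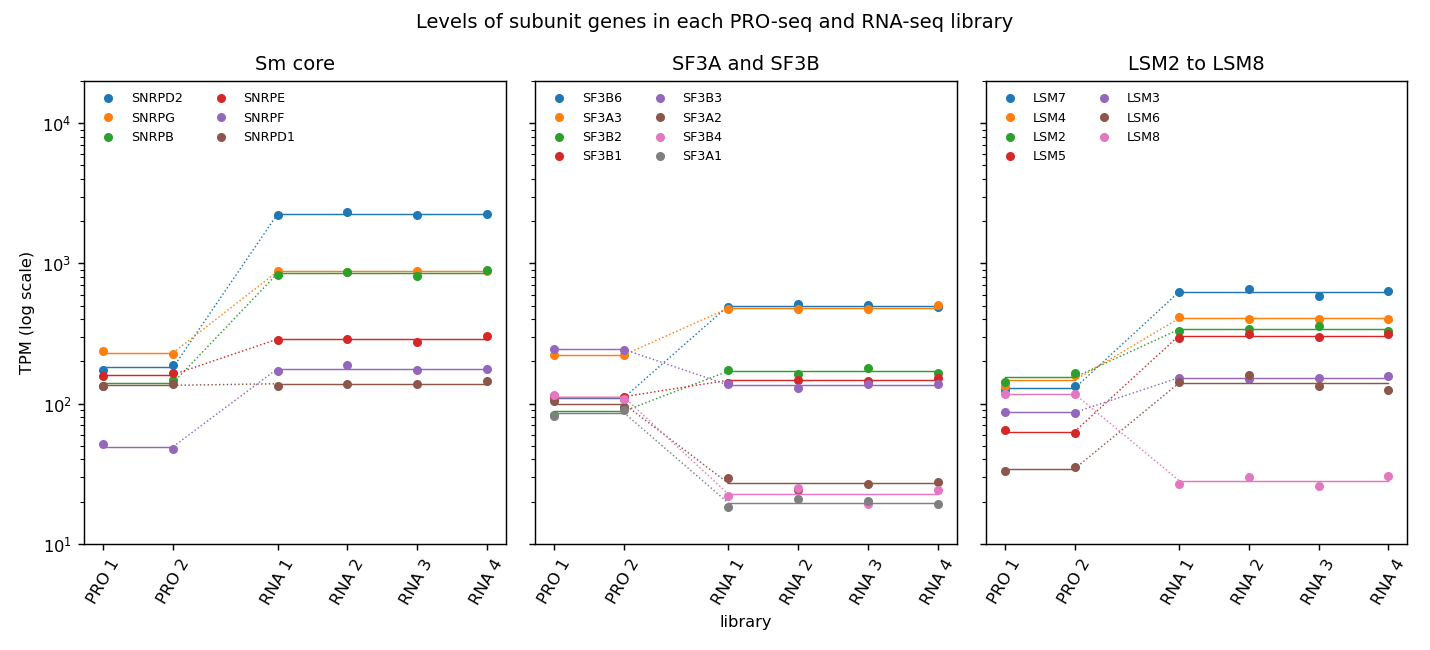
TPM (y axis, log scale) of each subunit gene in each PRO-seq (PRO) and RNA-seq (RNA) library for the Sm core, SF3A with SF3B, and LSM2 to LSM8. Points are single libraries, solid lines are means of an assay and dotted lines join the 2 means of a gene. In each panel the genes are closer together in PRO-seq than in RNA-seq (SD of log2 TPM 0.75 and 0.79 against 1.55 to 1.58 for the Sm core).

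Members of a particle were thus closer to each other in nascent than in steady-state RNA. Over the 8 SF3A and SF3B genes, the SD of log2 TPM was 0.60 and 0.57 in the PRO-seq libraries and between 1.89 and 1.94 in the RNA-seq libraries, so that the highest gene exceeded the lowest 3.02- and 2.64-fold in PRO-seq and 24.7- to 26.8-fold in RNA-seq. Over the 6 Sm genes, the SD was 0.75 and 0.79 in PRO-seq and between 1.55 and 1.58 in RNA-seq. Over LSM2 to LSM8 it was 0.76 and 0.81 in PRO-seq and between 1.45 and 1.51 in RNA-seq. The wider range of RNA-seq is a property of all mRNAs with an estimate, whose SD was 1.25 in PRO-seq and 2.06 to 2.07 in RNA-seq, and the thresholds of 10 and 1 TPM bound the assays differently. Over all 40 genes the SD was 0.90 and 0.96 in PRO-seq and 1.80 to 1.86 in RNA-seq. With only genes whose counted transcript is close to the canonical one, the SD of the 4 remaining Sm genes was 0.32 in PRO-seq and 1.77 in RNA-seq, and that of 7 SF3A and SF3B genes was 0.63 and 2.04.

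U2AF binds the polypyrimidine tract and the AG of the 3′ splice site. Its large subunit U2AF2 had between 165 and 176 TPM in RNA-seq, 111 and 122 TPM in PRO-seq, and a log2 half-life of 1.20 ± 0.05. With the canonical exon length the value of U2AF2 was 1.69. The small subunit U2AF1 had RNA-seq counts of only 1, 2, 2 and 6 and PRO-seq counts of 49 and 59, and was left without an estimate by the threshold of 1 TPM. RefSeq on GRCh38 lists a second copy of the gene with the synonym U2AF1L5, so that reads shared by the copies could be left out of the counts, and the values of U2AF1 are uncertain.

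Of the U5 proteins, PRPF8, which cradles the catalytic core, was the only one below the median mRNA. PRPF8 had 61.4, 57.5, 65.3 and 56.9 TPM in RNA-seq and 133 and 143 TPM in PRO-seq, and its log2 half-life was −0.56 ± 0.05 (edgeR adjusted p = 3.2e-11), but 0.07 without TPM thresholds. The helicase SNRNP200 (Brr2), which unwinds U4 from U6, stood at 1.18 ± 0.05 with 133 to 143 TPM in RNA-seq and 91.8 and 98.9 TPM in PRO-seq. Another TU on the same strand shares 37.1% of its window, and without the shared bases its value was 0.59. The counted SNRNP200 transcript holds 58.9% of the canonical exon bases. SNRNP40 (1.83 ± 0.04) and PRPF6, which bridges U5 and U4/U6 (1.93 ± 0.06), were longer-lived than PRPF8 and SNRNP200.

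All 4 genes of the U4/U6 snRNP and the tri-snRNP lay above the median mRNA. PRPF31 (2.45 ± 0.07) was the highest and PRPF4 (0.85 ± 0.07) the lowest, with PRPF3 at 1.43 ± 0.06. With canonical exon lengths PRPF31 stood at 2.75 and PRPF4 at 1.32. Their median nascent level was 58.4 TPM, against 112 TPM over all 40 genes. SNRNP27 was the lowest in PRO-seq of the genes with an estimate, with 12.0 and 8.86 TPM from 32 and 24 counts, and had 33.7, 29.2, 26.3 and 26.5 TPM in RNA-seq. Its estimate of 2.13 ± 0.19 rests on a window of which the TU of MXD1 on the same strand shares 63.7%, and was 0.93 without the shared bases. PRPF19, the ubiquitin ligase of the Prp19 complex that joins at spliceosome activation, stood at 1.27 ± 0.06.

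The U11/U12 proteins belong to the minor spliceosome, and 2 of the 3 genes lay above the median mRNA. SNRNP25 had between 306 and 324 TPM in RNA-seq, 53.1 and 56.1 TPM in PRO-seq, and a log2 half-life of 3.16 ± 0.11 (edgeR adjusted p = 6.4e-22). SNRNP48 stood at 0.27 ± 0.08 (edgeR adjusted p = 0.0016). SNRNP35 had 3.21, 3.16, 2.30 and 3.55 TPM in RNA-seq, from 13 to 28 counts, and 59.5 and 61.6 TPM in PRO-seq, for −3.65 ± 0.14 (edgeR adjusted p = 9.9e-21). The 3 genes had similar nascent levels, between 52.7 and 60.6 TPM. The counted SNRNP35 transcript, annotated without a defined coding sequence, holds 5.3% of the exon bases of the canonical transcript, so its RNA-seq value does not measure the coding mRNA.

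LSM proteins form a pair of rings that share LSM2 to LSM7. With LSM8 the ring is nuclear and binds the end of U6 RNA, and with LSM1 it is cytoplasmic and takes part in mRNA decay. LSM7 was the most abundant, with between 588 and 661 TPM in RNA-seq and 124 and 133 TPM in PRO-seq, for a log2 half-life of 2.93 ± 0.07 (edgeR adjusted p = 4e-26). LSM5 (2.92 ± 0.08), LSM6 (2.69 ± 0.10), LSM4 (2.10 ± 0.05), LSM2 (1.77 ± 0.07) and LSM3 (1.46 ± 0.06) were all above the median mRNA. The counted transcripts of LSM6 and LSM5 hold 21.2% and 31.0% of the canonical exon bases.

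LSM8, which defines the nuclear ring, was the exception. It had 26.7, 29.9, 25.7 and 30.5 TPM in RNA-seq and 118 and 117 TPM in PRO-seq, for −1.42 ± 0.07 (edgeR adjusted p = 1.6e-18). Its exon length of 12384 bp is the largest of all genes considered here. LSM1, which defines the cytoplasmic ring, had 155, 157, 153 and 163 TPM in RNA-seq and 129 and 131 TPM in PRO-seq, for 0.91 ± 0.06. Of the exon bases of its counted transcript 56.5% belong to the canonical one, and the canonical exon length gave 1.70. The nascent levels of LSM1 and LSM8 were close, and the RNA-seq TPM of LSM1 was over 5 times as high in all 4 RNA-seq libraries. The RNA-seq counts ran the other way, at 1287, 1521, 830 and 1132 for LSM8 and 944, 1009, 626 and 767 for LSM1. The gap in TPM thus rests on division by 12384 bp for LSM8 and 1568 bp for LSM1.

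Subunits of 4 pairs were compared directly, as the log2 ratio of their TPM in each library. LSM1 against LSM8 was 2.48 ± 0.09 (SD, n = 4) in RNA-seq and 0.14 ± 0.02 (n = 2) in PRO-seq, a difference in log2 half-life of 2.34 ± 0.05 (SE). SNRPA1 against SNRPB2 was −0.42 ± 0.07 in RNA-seq and 2.93 in both PRO-seq libraries, a difference of −3.35 ± 0.04. SNRPA, the U1 relative of SNRPB2, stood against SNRPB2 at 0.56 ± 0.01 in RNA-seq and 2.43 ± 0.08 in PRO-seq, a difference of −1.87 ± 0.06. U2AF1 against U2AF2 was −7.94 ± 1.29 in RNA-seq and −2.95 ± 0.07 in PRO-seq, a difference of −4.99 ± 0.65 that rests on the few U2AF1 counts. That difference was −3.71 on log2(TPM + 1) and ran from −5.54 to −4.53 when an RNA-seq library was left out. With canonical exon lengths, the difference was 3.13 for LSM1 against LSM8, −2.35 for SNRPA1 against SNRPB2, whose RNA-seq ratio turned to 0.58 ± 0.07, and −5.49 for U2AF1 against U2AF2. RNA-seq and PRO-seq ratios did not overlap in any of the 4 pairs with the counted lengths. How often this holds for other pairs of mRNAs was not counted. Over all mRNAs, replicate spread (median 0.126) was small beside the quartiles of log2 half-life (−1.06 and 1.08). The exact permutation test over the 6 libraries (two-sided, by doubling the smaller tail) gave p = 0.133 for each of the 4 pairs, and 0.133 after adjustment over them. That is the smallest p this form of the test can give with 4 and 2 libraries.

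**Figure D2:**
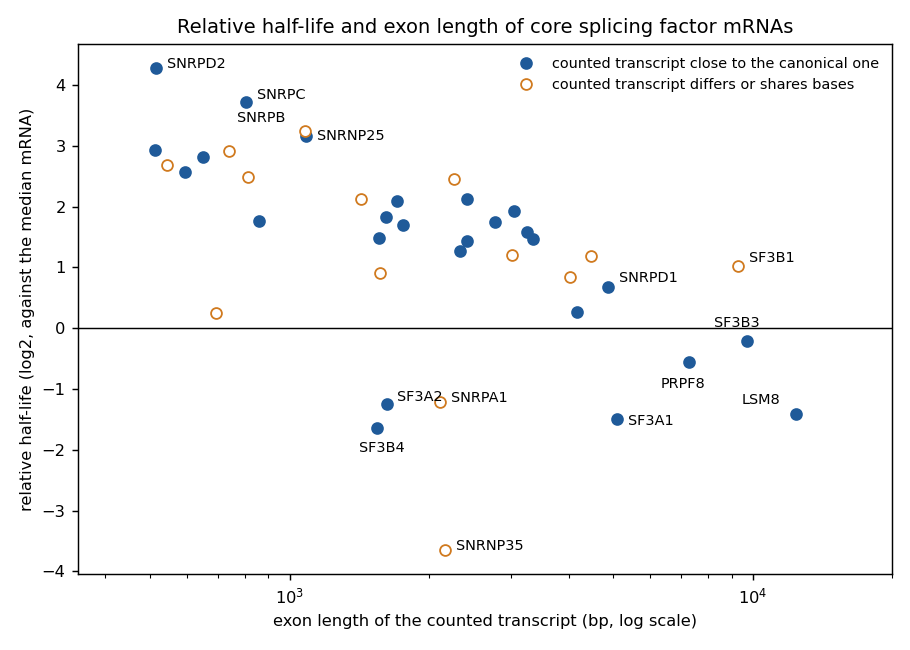
Relative half-life (y axis, log2, with the median mRNA at 0) against the exon length of the counted transcript (x axis, bp, log scale) for 40 core splicing factor mRNAs. Filled points have a counted transcript close to the canonical one and open points do not. SNRPD2 (515 bp) lies at the upper left and LSM8 (12384 bp) at the lower right.

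Short mRNAs had the longer half-lives in this set. Spearman's rank correlation between relative half-life and exon length was −0.65 across the 40 genes and −0.71 across the 26 whose counted transcript is close to the canonical one, against −0.33 across the 8733 mRNAs. These are descriptions across genes, which are not independent replicates, and the points share libraries and the division of RNA-seq counts by exon length. The median exon length was 1932 bp in the set and 3064 bp over mRNAs. SNRPD1 and SNRPD2 show how length enters a value, since the first RNA-seq library held 2504 counts over 4858 bp of SNRPD1 and 4462 counts over 515 bp of SNRPD2. SF3A2 and SF3B4 lay far from the relation, with exon lengths of 1619 and 1544 bp and log2 half-lives of −1.25 and −1.65. The rank correlation of RNA-seq with PRO-seq TPM was 0.40 over the 40 genes, against 0.55 over the mRNAs, and that of relative half-life with PRO-seq TPM was −0.13.

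Other proteins of the splicing pathway are given by list, where 45.4% of all mRNAs lay above and 44.9% below. Of 16 further snRNP-associated proteins with an estimate, 13 lay above the median mRNA and 3 below, with a median log2 half-life of 0.72. They ran from SMNDC1, an SMN-related factor (−2.78 ± 0.09), to PPIH, a cyclophilin of the tri-snRNP (2.97 ± 0.06). Of 26 proteins of the Prp19 complex and of later stages, 19 lay above and 6 below, with a median of 0.98, from PRPF38B (−1.59 ± 0.07) to BUD31 (2.91 ± 0.07, with 77.1% of the canonical exon bases counted). PRPF38A was not called (0.07 ± 0.06).

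Of 12 proteins of snRNP assembly and import, 10 lay above and 1 below, with a median of 0.80, from GEMIN4 (−0.31 ± 0.12) to STRAP (2.77 ± 0.07), both partners of the SMN complex that loads Sm rings on RNA. SMN1 and SMN2, near-identical copies of each other whose counts are uncertain, had no estimate, nor did GEMIN6 and GEMIN7, and GEMIN8 was not called. Of 6 other proteins of the minor spliceosome, 4 lay above and 1 below, with a median of 1.08, from RNPC3 (−1.34 ± 0.11) to SCNM1 (4.08 ± 0.13), and PDCD7 was not called. The value of SCNM1 rests on 80 PRO-seq counts and a transcript with 36.1% of the canonical exon bases.

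Of 6 other Sm and Sm-like proteins, 3 lay above and 3 below, with a median of 0.09, a split near that of all mRNAs. Without TPM thresholds, a setting that moved the median TU up by 0.63, 4 of 7 lay above and 1 below. They ran from LSM12 (−2.56 ± 0.09) to NAA38 (1.67 ± 0.08, with 65.8% of the canonical exon bases counted). Of the exon junction complex, which is left on spliced mRNA, 2 of 4 lay above and 1 below, from MAGOHB (−0.49 ± 0.09) to its paralog MAGOH (2.06 ± 0.07), and CASC3 was not called. CHERP, ISY1, PPIE, SNRPN and RBM8A had no estimate.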

How the data were processed

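The authors deposited raw HTSeq read counts per transcript for 4 total RNA-seq and 2 PRO-seq libraries, without normalization. Reads were trimmed with Cutadapt and aligned with HISAT2 to GRCh38, and 500 bp at each end of a TU were left out for PRO-seq. The sources used here give no versions of these tools. By its label, each deposited count is that of a gene's longest transcript.

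Transcripts were joined by identifier to GENCODE v44 lifted to GRCh37, which supplied lengths, symbols and the coordinates of TUs. Of 43172 listed transcripts 37339 (86.5%) matched, in 37192 genes. Lengths may differ from those used for counting. Rows naming no TU, 66.5% to 68.6% of RNA-seq and 86.5% to 88.6% of PRO-seq records, were left out. They include reads aligned to more than 1 place, 24.5% to 28% of RNA-seq and about 2.7% to 2.8% of PRO-seq records, so genes with near-identical copies can be undercounted. A further 20.6% to 21.6% of PRO-seq records, and 0% of RNA-seq records, were left out for low alignment quality. Records not aligned made up 54.8% to 58.8% of PRO-seq and 7.54% to 9.53% of RNA-seq. How many of the left-out records came from near-identical copies was not tested. PRO-seq counting kept strands apart, since 97.6% of TUs wholly under a TU on the same strand had 0 counts, against 41.8% of those under one on the opposite strand.

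Every TU was tested on its counts by quasi-likelihood in edgeR (version 4.0.16, under R version 4.3.3), with TMM normalization, offsets for length, centring on the median mRNA and Benjamini-Hochberg adjustment at 0.05. DESeq2 (version 1.42.0) was an alternative. On simulated counts for RNA-seq against PRO-seq over 9925 TUs, the test recovered 95% of 200 TUs given a log2 change of 1, with 8 false calls. The simulation gave all TUs the same fixed dispersion and left every other TU without a difference. Real TUs differ widely in their ratio, so these rates do not carry over to them. Other steps used Python 3.11.15. A transcript was called close to the canonical one where each held at least 90% of the exon bases of the other and at most 10% of its bases were shared with another TU on the same strand.

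Named genes were the Sm core, the extremes of each group and list, subunits of 4 pairs, PRPF8, SF3B1, SNRNP200, the 3 highest and 3 lowest genes by half-life and by level, and every gene without an estimate. Others are given for their role. The genes, lists and pairs were chosen with earlier results of these data known. Some marker genes of the lists are not reported here.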

Additional observations from a re-analysis of the deposited data

Results flagged for a closer look

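Among 42 groups of 4 RNA-seq libraries examined, 1 for each matched gene, a library stood apart from the other 3 by Dixon's criterion in 2. SF3A3 had 501 TPM in RNA-seq replicate 4, against 470 to 474 TPM in the other 3 (gap over range 0.880). LSM4 had 414 TPM in RNA-seq replicate 1, against 402 to 404 TPM in the other 3 (gap over range 0.834). Chance flags about 1 in 20 groups.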

How the results depend on the processing

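The counts of genes above and below the median mRNA were 32 and 8 with DESeq2, 31 and 8 at thresholds of 20 and 2 TPM, 32 and 7 when centred on all TUs, and 33 and 7 of 41 genes without TPM thresholds. They ranged from 31 to 32 above with 8 below when each library was left out. SNRNP48 lost its call without PRO-seq replicate 2 (0.19, edgeR adjusted p = 0.073). With genes whose counted transcript is close to the canonical one, 20 of 26 lay above and 6 below, and the median was 1.64. Centring on all TUs moved every TU by 0.22 and dropping the TPM thresholds moved the median TU by 0.63, so the median became 1.76 and 2.11. The settings that reversed a direction were centring on all TUs for SF3B3 (0.01) and no TPM thresholds for SF3B3 (0.42) and PRPF8 (0.07). The SD of SF3A and SF3B in RNA-seq was 1.88 on log2(TPM + 1). With close transcripts it was 2.04 in RNA-seq and 0.63 in PRO-seq, and for the Sm core 1.77 and 0.32. Without TPM thresholds the lists gave 23 above and 2 below of 29 TUs for the Prp19 complex and later stages, 16 above of 16 for snRNP assembly and import, and 3 above of 4 for the exon junction complex. The share of all mRNAs called without thresholds is not given here. Because that setting moved the median TU up by 0.63, its counts of genes and lists cannot be set against the shares of the main setting. Settings on canonical lengths, shared bases and close transcripts were chosen after seeing the data.

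Replicate numbers pair no libraries by label. The deviations of same-numbered RNA-seq and PRO-seq libraries correlated at −0.0113 over 9837 TUs, and a fit with the replicate number as a block gave 32 above and 8 below. The RNA-seq libraries 1 and 3, and 2 and 4, differed by little more than sampling noise (chi-square per degree of freedom 1.11 and 1.12, others 1.74 to 2.11), so their p-values rest on less independent spread than 4 libraries. Precision of SNRNP27, SNRNP35 and U2AF1 is limited by their counts.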
